A study of Mus musculus with 16 samples.

Results

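The pseudouridine map of normal ribosomal RNA in activated CD4 T cells was read by Ψ-seq from control mice, as 4 CMC-treated libraries against 4 mock-treated libraries. These are 8 of the 16 libraries of the series, chosen by genotype and paired by the number in their titles. Control cells were Rnmt fl/fl, CD4cre -, from females, so they carried the floxed allele of Rnmt, the mRNA cap methyltransferase gene, without Cre. The other 8 libraries came from Rnmt fl/fl, CD4cre + cells (Rnmt cKO), also from females, in which Cre is driven by the Cd4 promoter, and they serve here only as a second set of CMC and mock libraries. Ages were not given. All cells were CD4 T cells of lymph nodes, cultured for 20 h on plates coated with 5 ug/ml anti-CD3 and 1 ug/ml anti-CD28, and 300 ng of total RNA per replicate was treated with 0.17 M CMC or mock-treated. The files hold rRNA alone, so the labelled cell type could not be checked against its markers. Neither the labels nor the methods say whether the 4 replicates were separate animals, and p-values measure the spread between these samples.

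Pseudouridine is an isomer of uridine, attached to its sugar through carbon instead of nitrogen. In rRNA it is made mainly by H/ACA ribonucleoproteins, in which a small nucleolar RNA pairs with the target and the enzyme dyskerin isomerises the uridine, and the modified sites gather in the functional centres of the ribosome. CMC is a carbodiimide that forms an alkali-stable adduct on pseudouridine. Reverse transcriptase stops at the nucleotide before the adduct, so cDNA ends pile up 1 nucleotide downstream of the modified base, while stops at breaks, structures and other modifications appear in mock libraries too.

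Termination is given as the read starts at a position in percent of the read starts in the 65 nt window that ends there, and the PSU score is the ratio of CMC to mock termination within a replicate. Values are placed on the nucleotide that precedes the stop by 1, counted from 1 in the rRNA sequence of the files. A site was called at a mean CMC termination of at least 3% and a mean PSU score of at least 3 over the 4 replicates, the thresholds of the study. Of 6878 positions in 18S, 28S, 5.8S and 5S rRNA, 63 were called, which is 0.916%. There were 26 called sites in 18S, 35 in 28S, 2 in 5.8S and 0 in 5S.

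To show what the called nucleotides are, file positions were matched to rRNA-like transcripts of GENCODE vM21 (GRCm38) using the mock libraries alone. The match gave a base to 1639 positions of 18S, from an 18S copy on chromosome 17 (CT010467.1), and to 370 positions of 28S, from a 28S-like stretch in the last exon of Lars2 on chromosome 9. These are genomic copies that may differ from the rRNA at single bases, and bases were not read at other positions. The stretches below are 21 nt long. Capitals mark the nucleotide named and any other position in view that rose with CMC and is a called site or is named in the text, and DNA letters are used, so T stands for U or pseudouridine. The first 7 are called sites of 18S with high scores, high termination or a called neighbour.
18S nucleotide 34: catatgcttgTcTCAaagatt
18S nucleotide 683: aagctcgtagTtggaTcttgg
18S nucleotide 816: tttgAAaaaaTTagagtgTtc
18S nucleotide 824: aaTTagagtgTtcaaagcagg
18S nucleotide 1047: aagtcggagtTTcgaagacga
18S nucleotide 1058: TcgaagacgaTcagataccgt
18S nucleotide 1694: ccctgcccttTgtacacaccg
In the 18S copy, nucleotide 34 lies in chr17:39846376-39846396, nucleotide 1047 in chr17:39847394-39847414 and nucleotide 1694 in chr17:39848041-39848061, all on the plus strand. The next 4 are called sites of 28S, and the fifth, nucleotide 4110, is the uncalled position with the highest CMC effect.
28S nucleotide 3952: ttgaTCtTgaTtttcagtagg
28S nucleotide 4073: ggccaagcgtTcaTagcgacg
28S nucleotide 4095: cgctttttgaTccttcgatgt
28S nucleotide 4232: tgatgtgTtgTtgccatggta
28S nucleotide 4110: cgatgtcggcTcttcctatca
In Lars2, nucleotide 4073 lies in chr9:123461980-123462000 and nucleotide 4110 in chr9:123462017-123462037, both on the plus strand.

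The base was not used in calling, and every called site that could be read was a T: 23 of 23 in 18S and 11 of 11 in 28S. T made up 22.4% of the 2009 positions read. One nucleotide upstream of the 34 called sites the bases were 14 T, 11 A, 1 C and 8 G. At the stop itself, 1 nucleotide downstream, they were 11 T, 8 A, 8 C and 7 G. The called nucleotide was thus the position at which all sites shared a base. Of the 451 T positions read, 7.54% were called.

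Libraries held 1261221 to 1842139 read starts after CMC and 1850996 to 2165668 after mock treatment. CMC libraries were shallower than their mock partner in 4 of 4 replicates, and CMC minus mock averaged -457195 read starts. A 2-sided exact permutation test within pairs, which cannot go below 0.125 with 4 pairs, gave p = 0.125 (0.5 after adjustment over 6 library measures). The other 5 measures, which are the shares of 18S, 28S, 5.8S and 5S and the median termination, had adjusted p-values of 0.5 or more in the same exact test. The called stops took 3.97% to 4.63% of all read starts in CMC libraries and 1.09% to 1.16% in mock libraries. A called stop had at least 21 read starts in every library (at least 247 after CMC), over at least 4006 in its window, and intervals given here cover counting error only.

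The mock library of control 1 stood apart. Its share of starts in 5.8S was 4.08%, against 9.58% to 11.5% in the other 3 mock libraries. Its counts differed from theirs with a chi-square per degree of freedom of 42.1 to 45.3, against 2.5 to 5.53 among the other mock libraries. Among CMC libraries, pairs with control 1 gave 5.54 to 8.3 and the other pairs 2.84 to 4.34, so its CMC library also differed more, by a smaller margin. No libraries agreed within sampling noise. Across the 63 called sites, the log2 PSU score of control 1 correlated with that of controls 2, 3 and 4 at r = 0.298, 0.424 and 0.475, and those 3 among themselves at 0.869 to 0.889, where the sites share libraries and are no replicates. Results are therefore given with and without control 1, which leaves out both of its libraries.

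Over the called sites the mean PSU score ran from 3.05 to 10.3 with a median of 5.22, and the mean CMC termination from 3.00% to 12.6% with a median of 5.87%. Mock termination at the same stops had a median of 1.07%. The thresholds fix the lower ends of these ranges. In the 26 sites of 18S the median PSU score was 5.51 and the median CMC termination 6.10%, and in the 35 sites of 28S they were 5.22 and 5.40%. At all 63 sites every CMC library terminated more than every mock library, which is a description, since they were called in these libraries. The same separation was seen at 504 of 4048 tested positions, or 12.5%, and the opposite at 9.81%.

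**Figure D1:**
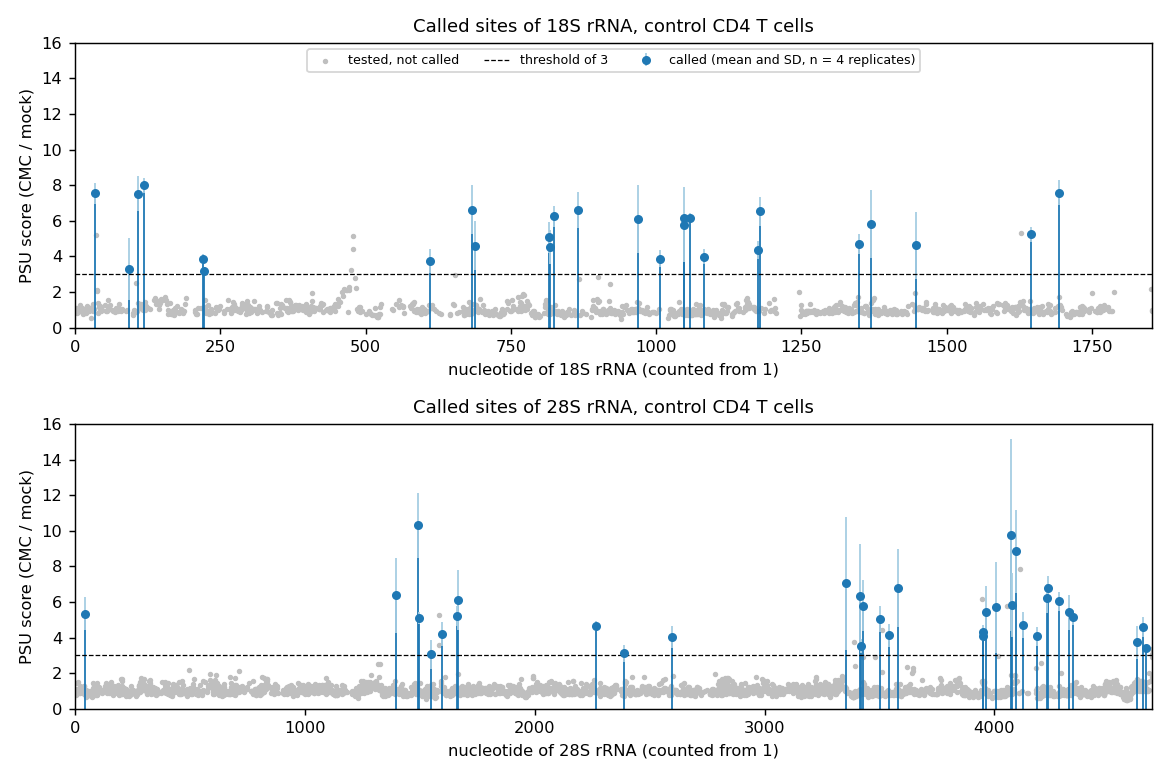
Mean PSU score (y axis, CMC termination over mock termination) along 18S and 28S rRNA (x axis, nucleotide) in control CD4 T cells. Blue points and stems are the 26 and 35 called sites with the SD of 4 replicates, grey points are tested positions that were not called, and the dashed line is the threshold of 3; the sites are sparse in the first 1396 nucleotides of 28S and crowd between nucleotides 3354 and 4342.

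The sites were spread unevenly. In the small subunit RNA, 18S nucleotides 701 to 1200 held 12 called sites, or 24 per 1000 nt. Nucleotides 1 to 700 held 9 and nucleotides 1201 to 1871 held 5. With all 4 replicates the median PSU score was 5.93 in the middle stretch, against 4.60 and 5.23. The ranges overlapped, with 3.87 to 6.59 in the middle stretch against 3.18 to 7.98 and 4.61 to 7.58. These medians were not compared without control 1. The largest gap between called neighbours of 18S ran from nucleotide 222 to nucleotide 611.

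In the large subunit RNA, only nucleotide 45 was called among the first 1100 positions, and the gap to the next called site, nucleotide 1396, was 1351 nt. Nucleotides 1101 to 2100 held 7 sites and nucleotides 2101 to 3200 held 3. Nucleotides 3201 to 3800 held 7, nucleotides 3801 to 4200 held 9 and nucleotides 4201 to 4731 held 8. The densest of these, nucleotides 3801 to 4200, had 22.5 called sites per 1000 nt. Its sites ranged in PSU score from 4.07 to 9.77. Called neighbours lay at most 6 nt apart in 12 cases, and 18S nucleotides 816 and 817 and nucleotides 1047 and 1048 were directly adjacent, at TT in the printed sequence.

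The site with the highest score was 28S nucleotide 1491. Its CMC termination was 4.00%, 3.72%, 4.15% and 4.03% in controls 1 to 4, and its mock termination was 0.347%, 0.459%, 0.343% and 0.420%. CMC and mock values were far apart in each replicate, and the PSU score was 10.3 ± 1.82 (SD, n = 4). This score divides by few counts: the mock stop held 48 to 65 read starts, and the Wilson 95% interval in control 3 was 0.259% to 0.454%. Without control 1 the score was 9.93 ± 2.01 (SD, n = 3).

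At 28S nucleotide 4073 the CMC termination was 4.07%, 4.00%, 4.14% and 4.62%, and the mock termination 0.227%, 0.577%, 0.607% and 0.622%. The CMC values were close together and the mock value of control 1 alone was low, at 26 read starts, with a Wilson 95% interval of 0.155% to 0.333%. The PSU scores were 17.9, 6.94, 6.83 and 7.42, with a mean of 9.77 ± 5.41 (SD, n = 4). Without control 1 the mean was 7.06 ± 0.317 (SD, n = 3), so the rank of this site as the next highest rested on that library.

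28S nucleotide 4095 followed, with CMC terminations of 5.22%, 4.77%, 4.45% and 5.13% against mock terminations of 0.425%, 0.603%, 0.628% and 0.633%. Its PSU score was 8.85 ± 2.33 (SD, n = 4), and again the score of control 1, 12.3, was above the others, which lay between 7.10 and 8.11. The scores of 28S nucleotides 3354 and 3579 also rested in part on control 1. At nucleotide 3354 control 1 scored 12.6 and the others 4.35 to 5.99, and the mean was 7.04 with control 1 and 5.20 without it. At nucleotide 3579 the mean was 6.79 with control 1 and 5.86 without it.

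With all 4 replicates, the highest scores of 18S were steadier than those of the 28S sites above. At nucleotide 119 the CMC termination was 3.67%, 3.97%, 3.74% and 3.89%, against 0.459%, 0.536%, 0.449% and 0.475% in mock. The PSU score was 7.98 ± 0.413 (SD, n = 4) and 7.97 without control 1. Nucleotide 1694, a T in the read stretch, had CMC terminations of 7.12%, 7.23%, 6.93% and 7.68% against 0.867%, 1.06%, 0.966% and 0.942%, a score of 7.58 ± 0.708. The scores of nucleotides 34 and 109 were 7.53 ± 0.595 and 7.52 ± 1.00, and that of 28S nucleotide 4232 was 6.81 ± 0.633 (SD, n = 4 each). The scores of nucleotides 1694, 34 and 109 lay within 1 SD of each other. Without control 1 the SD in percent of the mean was 6.34%, 9.48%, 7.07% and 8.64% at 18S nucleotides 119, 1694, 34 and 109. This spread was 4.49%, 6.96% and 6.52% at 28S nucleotides 4073, 4095 and 4232, and 20.3%, 15.8% and 24.7% at 1491, 3354 and 3579. Of the 10 highest scores, 8 were among the 10 highest without control 1.

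High termination picked out other sites than high scores. 28S nucleotide 4620 stopped most after CMC, at 10.6%, 12.0%, 13.9% and 13.8%, but it also stopped at 4.18%, 2.65%, 3.16% and 4.00% in mock libraries, and its PSU score was 3.73 ± 0.933 (SD, n = 4). 28S nucleotide 3952 reached 11.6%, 10.4%, 10.8% and 11.1% after CMC and 2.68 ± 0.179% in mock (SD, n = 4), a score of 4.11. 18S nucleotide 824 combined both, with 10.7 ± 0.769% after CMC, 1.72 ± 0.199% in mock and a score of 6.24 ± 0.610 (SD, n = 4). At 18S nucleotide 1047 CMC gave 12.2%, 11.2%, 10.2% and 11.6%, and mock gave 4.11%, 1.61%, 1.89% and 1.48%. Control 1 stood out in mock only, so its score of 2.97 was far below the 5.38 to 7.82 of the other replicates. The neighbour, nucleotide 1048, scored 6.13, 6.47, 6.03 and 5.91, the smallest relative spread of all called sites.

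**Figure D2:**
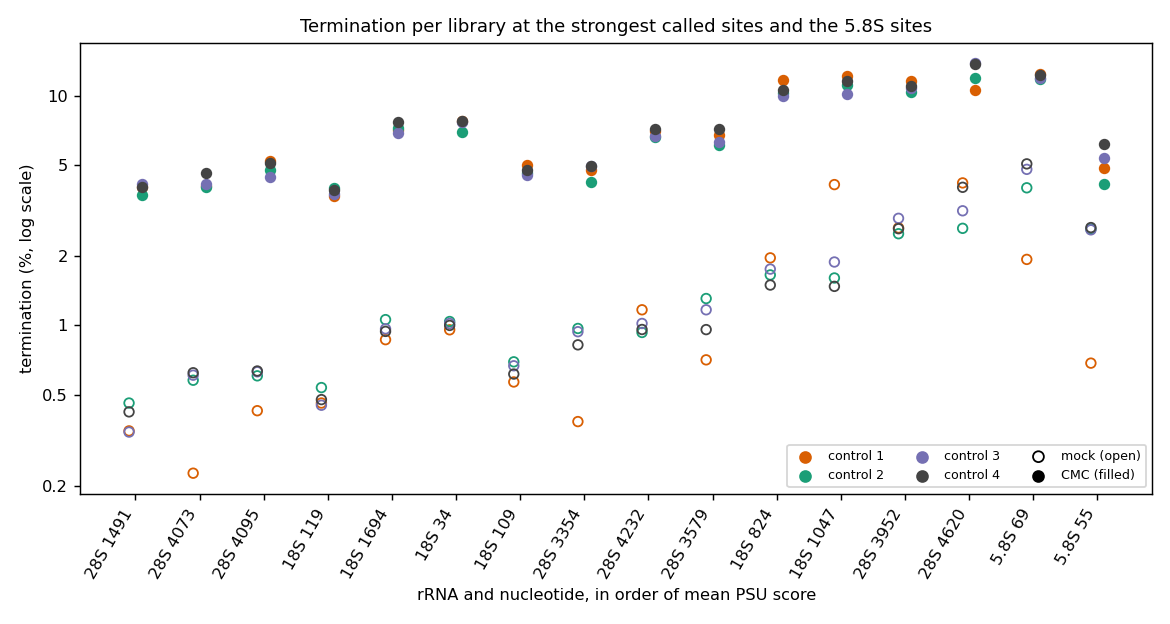
Termination (y axis, percent, log scale) in each of the 4 CMC libraries (filled) and 4 mock libraries (open) at the 14 called sites of 18S and 28S with the highest score or termination and at both called sites of 5.8S (x axis). CMC values of a site lie close together, and mock values differ most in control 1 (orange), which is low at 28S nucleotides 4073 and 3354 and at both 5.8S sites and high at 18S nucleotide 1047.

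The relative spread of the PSU score, the SD in percent of the mean, had a median of 15.5% over the 63 sites and ran from 3.94% to 78.8%. It was under 10% at 17 sites and over 30% at 14. The 5 steadiest were 18S nucleotides 1048, 1058 and 119 and 28S nucleotides 4658 and 2266, with 3.94%, 4.23%, 5.18%, 5.87% and 6.34%. The 5 most variable were 5.8S nucleotides 55 and 69, 28S nucleotides 4073 and 3354, and 18S nucleotide 93. In all of these control 1 had the highest score. Without control 1 the median spread was 9.48%, the highest 24.7%, and 0 sites were over 30%. Control 1 had the highest score of the 4 replicates at 33 of the 63 sites and the lowest mock termination at 32.

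**Figure D3:**
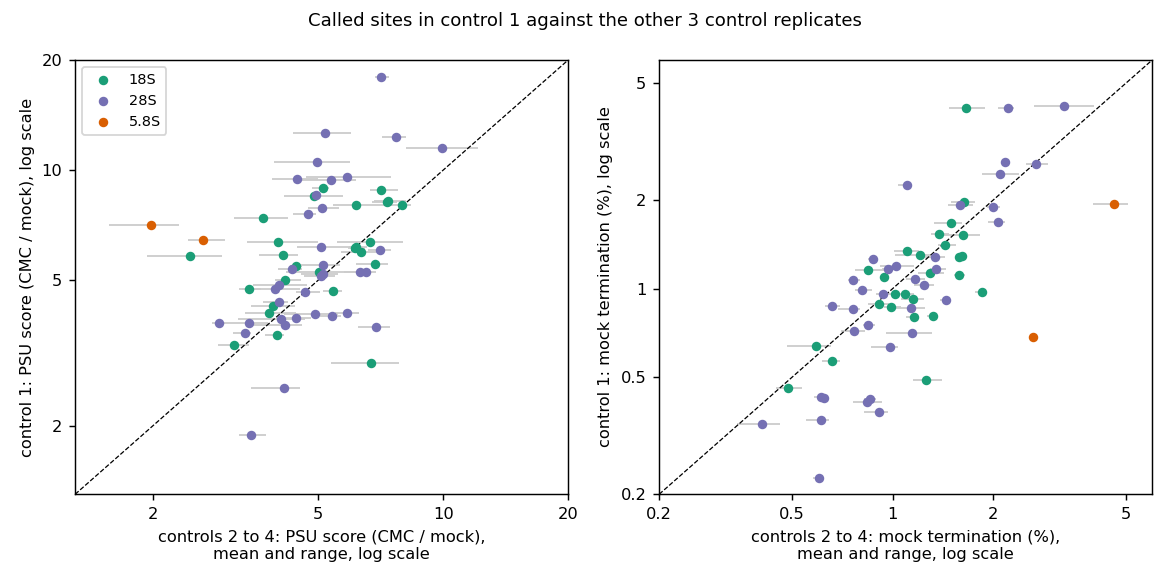
PSU score (left) and mock termination (right) of the 63 called sites in control 1 (y axis) against the mean of controls 2 to 4 (x axis, bar from lowest to highest), log scales, dashed line at equal values. Mock values of control 1 scatter on both sides of the line beyond the range of the other replicates, and both 5.8S sites lie far below it in mock.

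Both thresholds were passed in each of the 4 replicates at 52 of the 63 sites, in 3 replicates at 7, in 1 replicate at 3 and in none at 1, which was 18S nucleotide 93. There CMC termination was 2.85%, 2.73%, 3.04% and 3.39% and the PSU scores 5.82, 1.94, 2.48 and 2.94, so no single replicate passed both. The sites passed in 1 replicate were 28S nucleotide 2390 and both 5.8S sites, in each case in control 1. Of positions not called, 35 passed both thresholds in at least 1 replicate, and 33 of them in only 1. Uncalled positions that passed numbered 25 in control 1 and 5, 2 and 6 in controls 2, 3 and 4.

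The 5.8S sites depended on control 1. At nucleotide 69 CMC termination was 12.5%, 11.9%, 12.0% and 12.3%, and mock termination 1.94%, 3.98%, 4.79% and 5.06%. At nucleotide 55 CMC termination was 4.84%, 4.14%, 5.37% and 6.18%, and mock termination 0.685%, 2.63%, 2.61% and 2.67%. In control 1 the mock value was below the others at both, and the Wilson 95% intervals of that library, 1.75% to 2.15% and 0.59% to 0.794%, did not reach them. The PSU scores of 3.59 and 3.25 fell under the threshold, to 2.64 and 1.98, without control 1. CMC still raised termination there without control 1, by a log2 change of 1.39 ± 0.07 and 0.97 ± 0.12 (SE; edgeR, adjusted p = 1.46e-05 and 0.00188). With all replicates nucleotide 69 passed the same test and nucleotide 55 did not (adjusted p = 0.0232 and 0.0878).

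Leaving out control 1 gave 62 called sites, of which 59 were shared with the 63. Lost were both 5.8S sites, 18S nucleotide 93 and 28S nucleotide 2390, with scores of 2.45 and 2.88 at the latter 2. Gained were 18S nucleotide 868 (score 3.04), 28S nucleotide 3429 (3.38) and 28S nucleotide 4110, where CMC termination moved from 2.98% to 3.05%. Around the thresholds, the called sites with the lowest CMC termination were 18S nucleotide 93 (3.00%), 28S nucleotide 4076 (3.03%) and 28S nucleotide 3427 (3.17%). Just below it lay 28S nucleotides 4110 (2.98%), 3512 (2.92%) and 4056 (2.88%). Just above the score of 3 were 28S nucleotides 1547 (3.05) and 2390 (3.12) and 18S nucleotide 222 (3.18). Just below it were 28S nucleotides 4014 and 3423 (2.97 each) and 3429 (2.93).

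CMC was then tested against mock by edgeR, with the replicate as a block, at every position with a mean termination of at least 1%. That mean was taken over CMC and mock libraries together, so a rise after CMC can itself bring a position into the test. Of 4048 positions, 184 terminated more after CMC (adjusted p under 0.05, 4.55%) and 41 less (1.01%), 5.56% in all. Among the called sites 62 of 63 were higher, with 5.8S nucleotide 55 as the exception, and their log2 changes ran from 1.40 to 3.34 with a median of 2.37. All tested positions had a median of -0.02. As the sites were called in the same libraries, this count is a description. Without control 1, 445 positions were higher and 448 lower of 4049, and these included 183 of the 184 and all 41 of the first fit. Without control 2, 3 or 4, which keeps control 1, 88, 80 and 73 were higher and 1, 0 and 1 lower.

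The CMC effect followed the base also outside the called sites. Among tested positions with a base, 79 of 345 at T rose (22.9%), against 3 of 260 at A, 2 of 256 at C and 0 of 297 at G. The filter for testing, which includes the CMC libraries, passed 345 of 451 read positions at T and 260 of 469 at A. At C it passed 256 of 507 and at G 297 of 582, so these shares depend in part on the filter. None of the T positions fell, while 9 at A, 13 at C and 1 at G did. The median log2 change was 0.25 at T, -0.20 at A, -0.23 at C and -0.08 at G, and these signs were the same with TMM and median-ratio library sizes, in 3 narrower windows and without each replicate. With the called sites set aside, the median at T was 0.21 and 45 of 311 rose. Every one of the 4 PSU scores was above 1 at 54.5% of tested T positions and at 5.66% of the tested positions with another base.

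Without control 1 more positions passed the test at each base. At T 146 of 348 rose and 2 fell, which is 42.0% and 0.575%. At C 107 of 258 fell and 5 rose, at A 75 of 264 fell and 5 rose, and at G 58 of 300 fell and 7 rose. The medians, 0.23, -0.25, -0.22 and -0.13 for T, C, A and G, were close to those of all replicates.

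**Figure D4:**
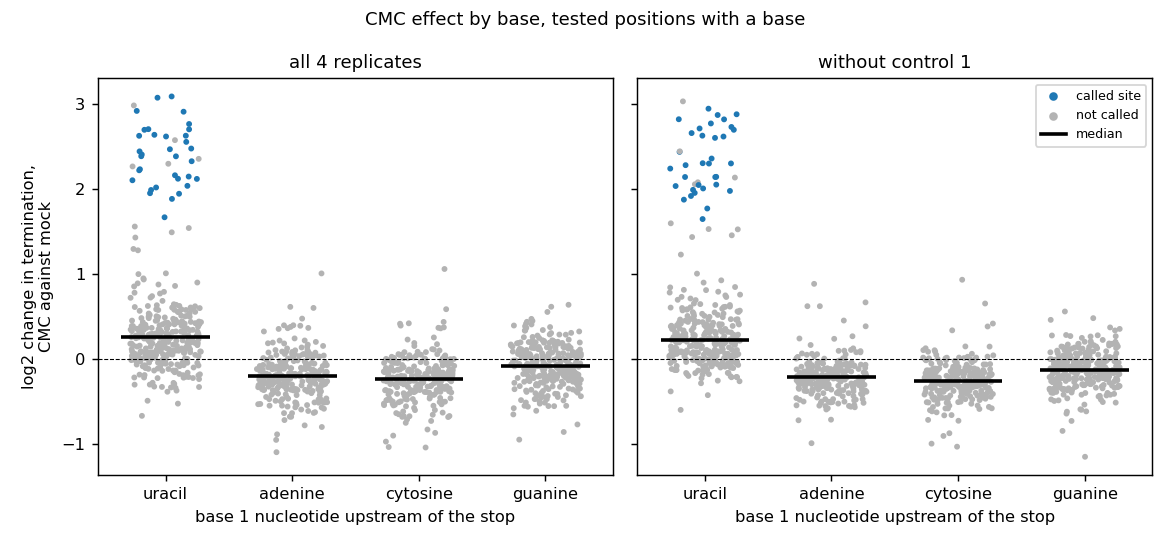
Log2 change in termination, CMC against mock (y axis), at tested positions of 18S and 28S by the base 1 nucleotide upstream of the stop (x axis), with all 4 replicates (left) and without control 1 (right). Blue points are called sites, all at uracil, grey points are other positions, and black bars are medians, above 0 at uracil only.

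Outside the called sites 122 positions rose, with log2 changes from 0.32 to 2.98 and a median of 0.67, and 28 of them were above 1. The 5 highest were uncalled for their CMC termination, since log2 changes of this size all but fix a score above the threshold. 28S nucleotide 4110 had CMC terminations of 2.75%, 2.83%, 3.05% and 3.27% against mock terminations of 0.394%, 0.354%, 0.385% and 0.381%. Its groups did not overlap, its score of 7.87 ± 0.668 (SD, n = 4) lay between those of 18S nucleotides 119 and 1694, and its log2 change was 2.98 ± 0.10 (SE; edgeR, adjusted p = 0.000167). The others were 28S nucleotides 3946, 4056 and 1584 and 18S nucleotide 36, with log2 changes of 2.57, 2.35, 2.35 and 2.29. The 4 of these 5 that could be read were T. Nucleotide 36 lies 2 nt after the called nucleotide 34, and 28S nucleotide 3946 lies 3 nt before the called nucleotide 3949.

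Of the 122, 50 had a base, and 45 of these were T. The exceptions were 18S nucleotides 37 (C), 38, 810 and 811 (A) and 28S nucleotide 3947 (C), named after their values were seen. Their log2 changes were 1.06, 1.00, 0.61, 0.60 and 0.58. Nucleotides 37 and 38 follow the risen nucleotide 36, and 28S nucleotide 3947 follows the risen nucleotide 3946. Positions directly upstream of a called site rose more often than uncalled positions at large: 11 of 28 tested, or 39.3%, against 3.06% of 3985. Directly downstream, 5 of 44 rose, or 11.4%, and at the other offsets up to 4 nt away the share ran from 2.22% to 17.4%. The filter for testing includes the CMC libraries, and 14 of the 34 called sites with a base had T directly upstream.

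The 41 positions that fell had log2 changes from -1.04 to -0.41. The largest falls were at 18S nucleotides 939, 1021, 1712 and 842 and 28S nucleotide 1566, at -1.04, -0.90, -0.73, -0.71 and -0.75, and the 4 in 18S are C. At nucleotide 939 termination was 0.660%, 0.761%, 0.708% and 0.956% after CMC and 1.37%, 1.87%, 1.59% and 1.49% in mock, with no overlap. Of the 41, 31 had a called site in the 64 nt before them, or 75.6%, against 50.0% of the 122 uncalled rises and 34.5% of all tested positions that were not called. A rising stop adds read starts to the windows of the positions after it. With TMM library sizes, which use no window, 10 of the 41 were among the 46 positions past the threshold. All 41 had a log2 change below 0 there, with a median of -0.50 against -0.51, but they were chosen as falls in the same counts. The cause of the falls was not tested.

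In 5S, where no site was called, 13 of 86 tested positions rose (15.1%, against 4.55% of all 4048) and 1 fell (1.16%, against 1.01%). The rises were small on the log2 scale, from 0.32 to 0.72, with CMC terminations of 1.89% to 9.18% and PSU scores of 1.25 to 1.65. The highest score of any tested 5S position was 1.67. Without control 1, 23 of the 86 rose and 4 fell, against 445 and 448 of all 4049 tested. Of the 13, 5 were also higher in the Rnmt cKO libraries, where 5.32% of all tested positions were higher. The bases of 5S and 5.8S were not read.

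The called sites were next read in the Rnmt cKO libraries, which had no part in calling them. All 63 were tested there and all 63 terminated more after CMC (edgeR, adjusted p under 0.05), against 214 of 4019 positions, or 5.32%. Their log2 changes there ran from 0.84 to 3.16 with a median of 2.28. In mean PSU score 38 sites were higher in control and 25 higher in Rnmt cKO, and the scores in Rnmt cKO ran from 1.88 to 9.02. For example, 18S nucleotide 119 had a log2 change of 2.99 ± 0.09 in control against 2.98 ± 0.13 in Rnmt cKO. The change at 28S nucleotide 1491 was 3.34 ± 0.13 against 3.01 ± 0.11 (SE, edgeR).

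Of the 63 sites, 57 were also called in Rnmt cKO. The 6 that were not were 18S nucleotides 93 and 611, 28S nucleotides 4620 and 4658 and both 5.8S sites. In control their scores were 3.29, 3.74, 3.73, 3.39, 3.25 and 3.59, and in Rnmt cKO 2.67, 2.77, 2.80, 2.81, 1.88 and 2.22. All 6 were among the 10 lowest scores of the called sites in control. In the other direction, 7 of the 64 sites called in Rnmt cKO were not called in control: 18S nucleotides 868 and 1627 and 28S nucleotides 3389, 3429, 3512, 4056 and 4205. All 7 also rose after CMC in control, with log2 changes from 1.29 to 2.35. When the CMC effect itself was compared between genotypes, edgeR found 0 of 4030 positions past the threshold. An unadjusted p under 0.05 was reached at 252, of which 6 were called sites. The lowest adjusted p of a called site was 0.76. Of the 122 uncalled positions that rose in control, 119 were tested in Rnmt cKO and 71 rose there (background 5.32%). Of the 41 that fell, 9 fell there (background 1.84%). The largest falls, at 18S nucleotides 939, 1021, 1712 and 842 and 28S nucleotide 1566, were -0.40, -0.78, -0.15, -0.65 and -0.27 there. Of these, the falls at nucleotides 939, 1021 and 842 passed the threshold in Rnmt cKO. A log2 change below 0 was seen there at 38 of the 41, and the share of all tested positions below 0 was not counted.

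**Figure D5:**
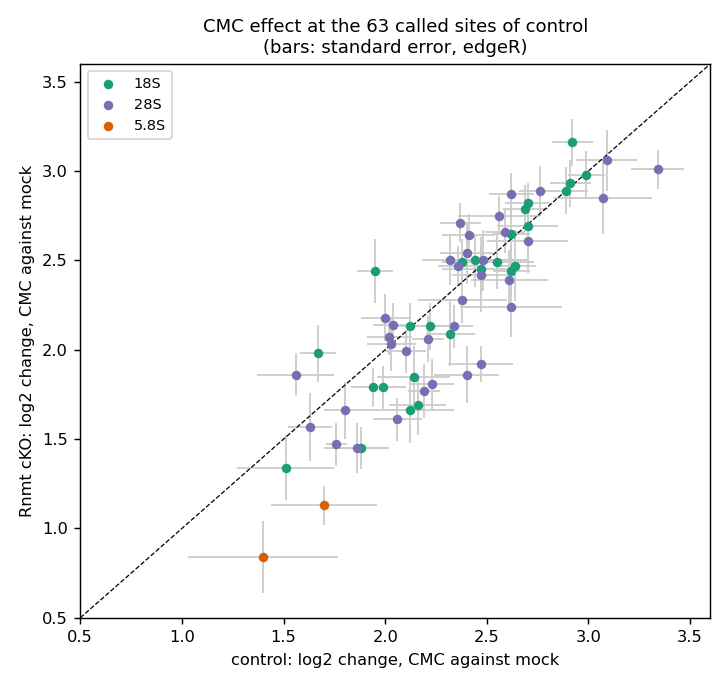
Log2 change in termination, CMC against mock, at the 63 called sites of control in the control libraries (x axis) and in the Rnmt cKO libraries (y axis). Bars are standard errors derived from edgeR's F statistic, and the dashed line marks equal values. All 63 points are above 0 on both axes, and both 5.8S sites are the lowest in Rnmt cKO.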

How the data were processed

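Ψ-seq libraries came from 300 ng of total RNA per replicate. According to the methods, the authors removed a random barcode of 10 nt with UMI-tools, trimmed with cutadapt, aligned with bowtie2 to custom rRNA sequences, deduplicated by barcode and dropped secondary alignments and mapping qualities under 20; the submitters' notes name STAR 2.5.2b and no bowtie2. The deposited values are counts of read starts per nucleotide, not normalised. The methods divide by read coverage, which counts of starts do not hold, so the 65 nt window (75 cycles less the barcode) replaced it. Shorter reads leave positions uncovered, so termination is a lower bound. The labels name a naive CD4 kit and the methods a CD4 kit from another maker.

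The test was edgeR's quasi-likelihood F-test (edgeR 4.0.16, R 4.3.3) on read starts, with log window coverage as offset, Benjamini-Hochberg adjustment and a threshold of 0.05. Standard errors marked edgeR were derived as the size of the log2 change over the square root of the F statistic. Scripts were tested on simulated data, where unchanged positions were also called once many others rose strongly. With 200 positions raised 4-fold, 121 unchanged positions were called, with 200 raised 2-fold 16, and with none raised 0. Counts of changed positions, the 41 falls among them, can include such positions. CMC and mock libraries of a number share 1 replicate's RNA, so the replicate was a block. However, deviations from the group means correlated at -0.00949, -0.457, 0.113 and 0.38 for numbers 1 to 4. CMC and mock libraries of different numbers correlated at -0.441 to 0.468, so those of 1 number were not consistently more alike. DESeq2 1.42.0 and limma 3.58.1, on log2 of termination plus 0.1, were alternatives. Bases came from an alignment of position effects in control mock libraries to GENCODE vM21 transcripts (r = 0.473 to 0.647 for Lars2 in 3 stretches of 200 nt, against at most 0.406 for any other gene). Named positions are those of highest score, termination or CMC effect, most and least variable, nearest the thresholds, falling most, in 5.8S, or not called in Rnmt cKO. Positions and lists were chosen with earlier results of these data known.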

Additional observations from a re-analysis of the deposited data

Results flagged for a closer look

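Each of 135 sets of 4 values, the PSU score and the CMC and mock termination of the named positions and the library measures, was examined for a value far from the other 3. Such a value was found in 16. Chance gives about 1 in 20 for independent sets not chosen for their spread, a rate that does not apply here, since some positions were named for a large spread and the PSU score is the ratio of the other values. In 13 of the 16 the far value was from control 1.

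In mock termination control 1 was far below the others at 28S nucleotides 4073 (0.227%) and 4095 (0.425%) and 5.8S nucleotide 55 (0.685%). It was far above them at 18S nucleotide 1047 (4.11%) and at 28S nucleotides 1547 (4.12%), 2390 (2.69%) and 3429 (2.82%). In PSU score control 1 exceeded the others widely in 28S, with 17.9 at nucleotide 4073 and 8.55 at nucleotide 4076, and in 5.8S, with 7.07 at nucleotide 55 and 6.43 at nucleotide 69. Its CMC termination was far above them at 28S nucleotide 2390 (10.3%). The median mock termination over tested positions was 1.64% in control 1, against 1.79% to 1.80%.

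In CMC termination control 2 was far below the others at 18S nucleotide 34 (6.97%, others 7.67% to 7.81%) and 28S nucleotide 3512 (2.76%, others 2.96% to 2.98%). Control 4 was far above them at 28S nucleotide 3429 (4.99%, others 4.48% to 4.51%).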

How the results depend on the processing

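The 63 called sites became 39 at a CMC threshold of 5% and stayed between 50 and 83 under the other settings, 61 to 67 when a replicate was left out. With windows of 50, 40 and 30 nt, 71, 73 and 77 sites were called. Without control 1, a setting chosen for the regions after seeing the data, 0 sites were called in 5.8S. The counts of changed positions depended on the replicates: 184 higher and 41 lower became 290 and 145 with no replicate block, 311 and 170 with all 16 libraries in the fit, 73 to 445 and 0 to 448 when a replicate was left out. With windows of 40 and 30 nt, where more positions were tested, 75 and 113 were lower. DESeq2 gave 200 and 53, limma 183 and 40. Unblocked, the deficit of read starts in CMC libraries, -457195, had p = 0.0286 in an unpaired exact permutation test. When a replicate was left out, the difference in the share of 18S ran from -0.363 to 0.0742 percentage points and that in median termination from -0.0284 to 0.0225. The 63 called sites were higher in Rnmt cKO in 62 or 63 cases throughout. Of 492 values for the 41 named positions under other settings, 0 changed sign, 40 lost the threshold (9, 10 and 11 of them without control 2, 3 and 4) and 4 gained it. The falls at 18S nucleotides 842 and 1021 and 28S nucleotide 1566 were not past the threshold with TMM or median-ratio library sizes, although their log2 changes with TMM, -0.69, -0.83 and -0.83, were close to -0.71, -0.90 and -0.75. The causes of these shifts were not tested. Low mock counts limit the precision of the highest scores.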

Other observations

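Outside the called sites, 14 tested positions had a mean PSU score of at least 3, and 10 of these rose in edgeR. Of the 14, 3 lay in 18S nucleotides 463 to 482, the 20 nt with the highest median score in control 1, chosen after the values were seen. The median PSU score there was 8.75 in control 1 and 0.779, 1.04 and 1.16 in controls 2 to 4. The mock library of control 1 had 301 read starts in these 20 nt, 0.0742% of its starts in 18S, against 0.656% to 0.764% in the other mock libraries and 0.536% to 0.844% in the CMC libraries.

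The bases were also compared among the 510 tested positions with a base and no called site in the 64 nt before them. This setting was chosen after seeing the data. At T 32 of 146 rose, or 21.9%, against 2 of 111 at A, 1 of 113 at C and 0 of 140 at G. The median log2 change was 0.32 at T, -0.13 at A, -0.15 at C and 0.00 at G, and 5 positions fell, 3 at A and 2 at C. Without control 1, 68 of 147 at T rose and 0 fell, and 66 of 517 positions fell, 31 at C, 19 at A and 16 at G.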
